A study of Homo sapiens with 12 samples.

Results

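The 10 circadian clock genes ARNTL, CLOCK, PER1, PER2, PER3, CRY1, CRY2, NR1D1, NR1D2 and DBP were followed in HepG2 cells in which the amount of the enzyme TST had been altered. They were chosen by name, as the central genes of the clock loop and a transcription factor it drives, and were 10 of the 57500 genes counted in each library. All 10 had enough counts to be tested in every comparison. CRY1 was lower than in control cells both in cells with TST silenced and in cells overexpressing TST, NR1D2 was lower with overexpression, and none of the 10 genes passed the test as higher than in control cells.

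The circadian clock is a loop of transcription and translation that runs in most cells of the body. BMAL1, the protein of ARNTL, pairs with CLOCK and switches on genes whose promoters hold E-box sequences, among them the PER and CRY genes, and PER and CRY proteins then gather and inhibit this pair. In a second loop the nuclear receptors NR1D1 and NR1D2 (REV-ERBα and REV-ERBβ) repress ARNTL at RORE sequences, where the ROR receptors activate it, and DBP acts at D-box sequences and carries the rhythm on to output genes. In liver, the clock sets daily rhythms in glucose, lipid, bile acid and haem metabolism.

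HepG2 is a human hepatocellular carcinoma line, and TST (thiosulfate sulfurtransferase, or rhodanese) is an enzyme that converts cyanide to thiocyanate. RNA was sequenced from 4 libraries each of WT control cells, of shTST cells carrying a short hairpin RNA against TST, and of overTST cells carrying a codon-optimised TST with a Myc tag behind the CMV promoter in a lentiviral vector with blasticidin selection. All 3 groups were cultured with 400 µM glycine for 24 h. The question for the clock genes was whether their transcripts differed between cells with less, usual and more of this enzyme. The control cells are not described as carrying an empty vector, so that transduction and selection cannot be told apart from the change in TST. No synchronisation of the cells and no hour of harvest is described, and cells were taken at 1 time, so that a change of a gene's mean level and a shift of its phase cannot be told apart, nor can fewer cells expressing a gene and less RNA per cell.

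Library totals ran from 22911380 to 45120508 counts, and the overTST libraries, at 22911380 to 27414142, all lay below the WT libraries, at 28866175 to 45120508 (exact permutation test, two-sided p = 0.0286, the smallest that 4 against 4 allows). TST itself was at 49.0 ± 2.59 CPM (counts scaled to a common library total by TMM, edgeR's method; SD, n = 4) in WT, fell to 34.2 ± 1.62 CPM in shTST (adjusted p = 3.20e-06) and rose to 57.9 ± 4.90 CPM in overTST (adjusted p = 0.00384), where reads of the recoded transgene may not have been counted as TST. The latter call was lost when the trend of the counts with gene length was removed. The 6 markers of hepatocyte-derived cells, ALB, AFP, APOA1, APOB, TTR and SERPINA1, summed to between 19320 and 25550 CPM in every library. Within that sum single markers moved in opposite ways. With shTST, ALB (0.39 on the log2 scale) and AFP (0.49) passed as higher than in WT, and APOB (−0.19) and TTR (−0.33) as lower. With overTST, APOA1 (0.24) and TTR (0.16) passed as higher and APOB (−0.55) as lower. SERPINA1 did not pass in either line. The 9 markers of leukocytes, endothelial cells and fibroblasts summed to between 21.0 and 29.6 CPM, with PTPRC, CD3E and COL3A1 at 0 to 2 counts in each library. Most of that sum was PDGFRB, a receptor of fibroblasts, which was lower than in WT with shTST by 0.40 and with overTST by 0.43 on the log2 scale. The ranges of the 9-marker sum were 26.0 to 29.6 CPM in WT, 21.0 to 23.0 CPM in shTST and 22.0 to 24.3 CPM in overTST, and their part in the results was not tested. Of the 9 markers, PTPRC, CD3E, VWF and COL3A1 were too low to be tested. Among the others 1 was called with shTST (PDGFRB) and 3 with overTST (PDGFRB and CDH5 lower, PECAM1 higher). Over all genes tested 16.1% and 33.9% were called. WT replicate 2 stood apart in genes of the acute response, which was a median 0.56 higher on the log2 scale than in the rest of its group against −0.19 to −0.15 in the other WT libraries, and counts of calls and the values that it moved most are also given without it.

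The stretches before the starts of CRY1 and NR1D2, the genes called in a comparison with WT, and of CRY2, the close relative of CRY1 that was not called, are shown with the clock motifs they hold. They are from the RefSeq promoter table on build GRCh38.p14, 250 bases read 5′ to 3′ on the strand of the gene up to the base before the start. Capitals mark the E-box CACGTG, its variant CACGTT, the D-box TTATGTAA or TTACGTAA and the RORE half-site AGGTCA or GGGTCA, each searched on both strands, and none of the marked motifs overlap each other. Of the 2 starts of CRY2 and of NR1D2 in that table, the first of CRY2 and, for its E-boxes, the second of NR1D2 are shown.
CRY1, chr12:107093550-107093799, minus strand: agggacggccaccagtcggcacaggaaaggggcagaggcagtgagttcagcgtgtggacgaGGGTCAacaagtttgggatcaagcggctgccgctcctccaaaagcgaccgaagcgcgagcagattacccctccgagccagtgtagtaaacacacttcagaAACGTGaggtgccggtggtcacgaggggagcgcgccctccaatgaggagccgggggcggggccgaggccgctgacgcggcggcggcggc
CRY2, chr11:45846868-45847117, plus strand: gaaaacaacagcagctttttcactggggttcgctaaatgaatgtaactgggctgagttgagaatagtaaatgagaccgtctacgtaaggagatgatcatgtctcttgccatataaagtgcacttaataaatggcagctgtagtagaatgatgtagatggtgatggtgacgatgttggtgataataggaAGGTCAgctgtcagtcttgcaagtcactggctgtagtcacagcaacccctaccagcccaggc
NR1D2, second start, chr3:23945871-23946120, plus strand: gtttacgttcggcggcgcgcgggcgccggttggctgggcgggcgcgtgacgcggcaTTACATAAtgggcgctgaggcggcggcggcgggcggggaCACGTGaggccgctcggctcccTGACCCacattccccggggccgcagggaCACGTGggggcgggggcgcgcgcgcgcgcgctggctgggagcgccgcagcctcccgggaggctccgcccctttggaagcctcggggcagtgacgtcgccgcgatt
The CRY1 stretch held 1 variant E-box, first base 89 bases before the start, and 1 RORE half-site at 189 bases. The NR1D2 stretch held 2 E-boxes, at 155 and 105 bases before the start, with a D-box at 194 and a RORE half-site at 133 bases. In the CRY2 stretch shown the search found 1 RORE half-site, at 62 bases before the start. The window of the other CRY2 start held a variant E-box at 188 and a RORE half-site at 64 bases before it, so that a variant E-box was found before both CRY genes. The other NR1D2 window held 1 RORE half-site, at 28 bases before its start.

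Over the 15 windows of the 10 genes, each of 300 bases from 250 before to 50 after a start, the E-box was found in 2 windows (PER1 and NR1D2), its variant in 5, the D-box in 3 and the RORE half-site in 8. Among all 35116 windows of the table the shares were 7.26% for the E-box, 5.34% for the variant, 1.01% for the D-box and 25.6% for the half-site, so that the 6-letter half-site is common in any promoter. A match is a description of the letters and was not tested as a binding site.

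Neither ARNTL nor CLOCK, the activators of the loop, passed the test against WT in either line. ARNTL (chromosome 11, bases 13276652 to 13387266 on GRCh38) read 4.80, 3.98, 3.74 and 4.45 CPM in the WT libraries, 4.65, 4.12, 4.55 and 4.68 CPM in shTST, and 3.92, 3.73, 3.12 and 3.41 CPM in overTST. The WT libraries overlapped both other groups, whereas every shTST library was above every overTST library. Against WT the log2 fold change of ARNTL was 0.09 (SE 0.12, adjusted p = 0.659) with shTST and −0.26 (SE 0.13, adjusted p = 0.144) with overTST. CLOCK, the histone acetyltransferase partner of BMAL1, lay between 13.1 and 17.5 CPM in all 12 libraries, with log2 fold changes of −0.02 (interval of 2 standard errors −0.16 to 0.12) with shTST and −0.10 (interval −0.26 to 0.07) with overTST. The sign of the CLOCK values turned when gene length was corrected for.

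**Figure D1:**
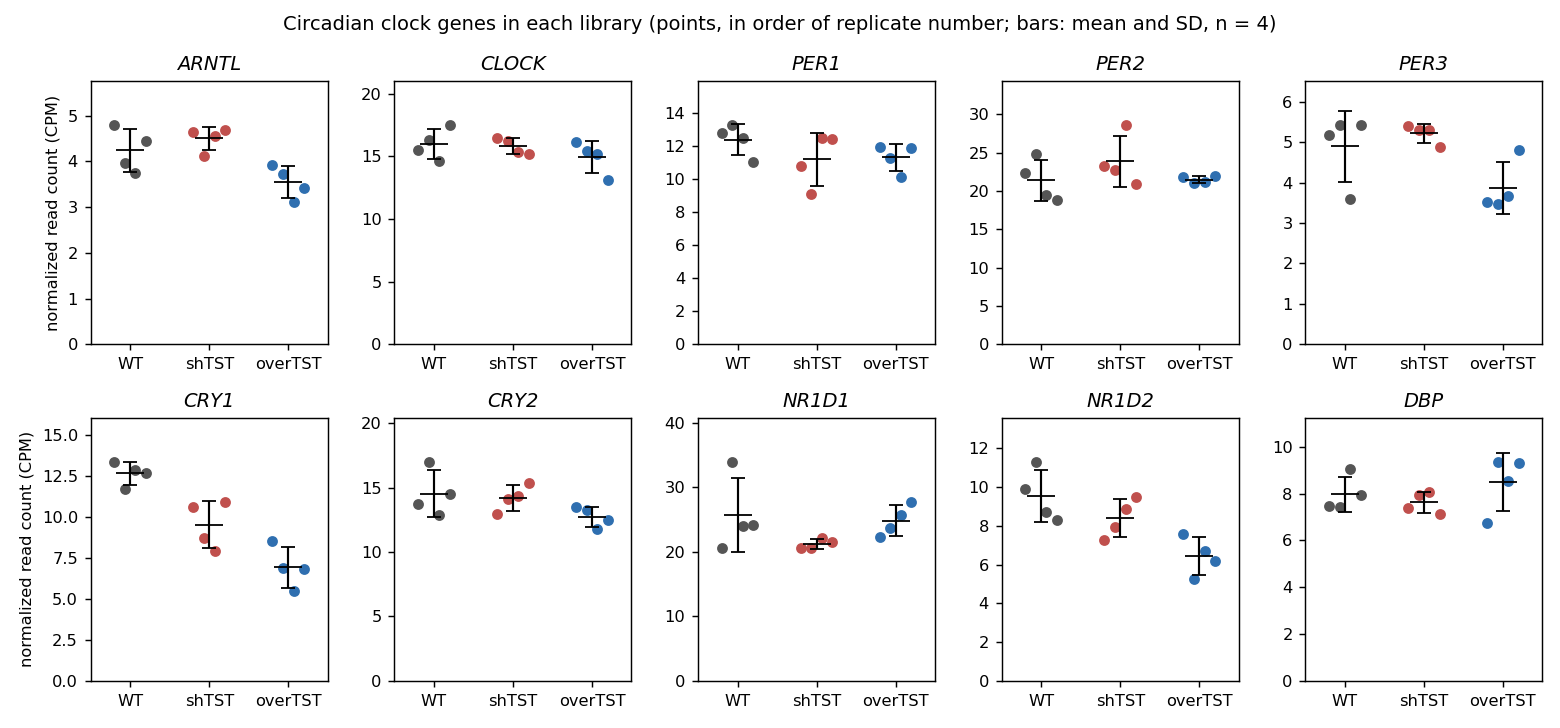
Normalised read counts (CPM, linear axes from 0) of the 10 clock genes, with a point for each library in order of replicate number and bars for the mean and SD of 4 libraries. All 4 overTST libraries of CRY1 lie between 5.49 and 8.51 CPM and all 4 WT libraries between 11.7 and 13.4 CPM, and WT replicate 2 is the high point of NR1D1 at 34.0 CPM.

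PER1, PER2 and PER3 encode the period proteins, the partners of the cryptochromes in the inhibitory complex, and PER1 and PER2 are also induced directly by cAMP, glucocorticoid and growth factor signals. None of the 3 passed the test against WT. PER1 ran from 11.04 to 13.3 CPM in WT, from 9.11 to 12.5 CPM in shTST and from 10.2 to 11.9 CPM in overTST, so that its ranges overlapped in every pair of groups, with log2 fold changes of −0.15 (interval −0.33 to 0.04) with shTST and −0.13 (interval −0.31 to 0.04) with overTST. PER2 was at 21.4 ± 2.72, 23.9 ± 3.31 and 21.5 ± 0.445 CPM in the same order, with log2 fold changes of 0.16 (interval −0.02 to 0.34) with shTST and 0.00 (interval −0.16 to 0.16) with overTST. These were 0.24 (adjusted p = 0.0608) and 0.08 (adjusted p = 0.453) without WT replicate 2.

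PER3 (chromosome 1, bases 7784320 to 7845177) read 5.17, 5.43, 3.60 and 5.43 CPM in WT, 5.40, 5.29, 5.31 and 4.88 CPM in shTST, and 3.51, 3.47, 3.67 and 4.82 CPM in overTST. One library of WT sat with most of overTST, and 1 library of overTST was close to the shTST libraries. With overTST the log2 fold change of PER3 was −0.36 (SE 0.15), and its adjusted p of 0.0602 was just above the threshold of 0.05. Without WT replicate 3, or without overTST replicate 4, PER3 passed, with log2 fold changes of −0.47 in both. Both of these libraries lay toward the other group, so that the difference widens without them. PER3 also passed with no filter on low counts (−0.38, adjusted p = 0.0291) and in the fit of all 12 libraries (−0.36, adjusted p = 0.0414). It did not pass with the length correction (−0.24, adjusted p = 0.216). Exons of PER3 share 868 bases with UTS2 and 482 bases with a long non-coding gene on the other strand, which had 0 to 4 counts in every library.

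CRY1 and CRY2 encode the cryptochromes, the repressors that bind CLOCK and BMAL1, and only CRY1 passed the test of these. CRY1 (ENSG00000008405, chromosome 12, bases 106991364 to 107093829) read 13.4, 11.7, 12.8 and 12.7 CPM in WT, 10.6, 8.71, 7.94 and 10.9 CPM in shTST, and 8.51, 6.91, 5.49 and 6.82 CPM in overTST. Every shTST and every overTST library was below every WT library, and the ranges of shTST and overTST overlapped. The CRY1 transcript fell by 24.7% with shTST (log2 fold change −0.41, SE 0.09, adjusted p = 0.00487) and by 45.0% with overTST (log2 fold change −0.86, SE 0.11, adjusted p = 1.78e-06). These values rest on 139 to 534 counts of CRY1 per library. Both calls held under all 19 alternatives run for each comparison, with log2 fold changes of −0.48 to −0.32 for shTST and −0.99 to −0.76 for overTST. The 2 comparisons share the WT libraries and are not independent of each other.

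CRY2 (chromosome 11, bases 45847118 to 45883248) read 13.7, 17.0, 12.8 and 14.5 CPM in WT, 12.9, 14.1, 14.4 and 15.4 CPM in shTST and 13.5, 13.3, 11.8 and 12.5 CPM in overTST. Its groups overlapped, and the log2 fold changes were −0.04 (interval −0.21 to 0.13) with shTST and −0.20 (interval −0.37 to −0.02, adjusted p = 0.0974) with overTST. Without WT replicate 2, the highest CRY2 library, the overTST value of CRY2 was −0.11 (adjusted p = 0.391), and without WT replicate 3 it was −0.25 and passed (adjusted p = 0.0390). Per length of the gene, CRY1 stood at 1.08 ± 0.173 times CRY2 in WT, at 0.827 ± 0.143 times in shTST and at 0.663 ± 0.0843 times in overTST (SD, n = 4). The ratio ran from 0.844 to 1.23 over the WT libraries and from 0.571 to 0.774 over the overTST libraries, which did not overlap. Over the shTST libraries it ran from 0.677 to 1.004, and this range overlapped with that of WT. This ratio contains the CRY1 values that were already called and was not tested by itself.

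NR1D1 and NR1D2 encode the REV-ERB receptors, haem-binding repressors that act on ARNTL and on metabolic genes. NR1D2 (ENSG00000174738, chromosome 3, bases 23945260 to 23980618) read 9.87, 11.3, 8.73 and 8.31 CPM in WT, 7.26, 7.94, 8.87 and 9.46 CPM in shTST, and 7.58, 5.25, 6.71 and 6.18 CPM in overTST. All overTST libraries were below all WT libraries, and the shTST libraries overlapped with both. The NR1D2 transcript fell by 32.8% with overTST (log2 fold change −0.57, SE 0.12, adjusted p = 0.000562), on 124 to 515 counts per library. This call held under all 19 alternatives, with log2 fold changes of −0.67 to −0.48, the smallest in size being the value without WT replicate 2. With shTST the log2 fold change of NR1D2 was −0.19 (SE 0.10, adjusted p = 0.216), and −0.10 (adjusted p = 0.603) without WT replicate 2.

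NR1D1 (chromosome 17, bases 40092787 to 40100725) read 20.6, 34.0, 24.04 and 24.1 CPM in WT, 20.6, 20.5, 22.1 and 21.5 CPM in shTST, and 22.2, 23.7, 25.7 and 27.6 CPM in overTST. WT replicate 2 was above all other libraries, and without it the WT range lay at 20.6 to 24.1 CPM. The log2 fold change of NR1D1 was −0.29 with shTST (SE 0.10, adjusted p = 0.0568) and −0.06 with overTST (SE 0.11, adjusted p = 0.707). Without WT replicate 2 these were −0.11 (adjusted p = 0.304) and 0.11 (adjusted p = 0.327). Leaving out WT replicate 1 or 3 in its place put the shTST value past the threshold, and so, with all libraries in, did the lack of a filter, the length correction and the block by replicate number with and without it (adjusted p = 0.000509 to 0.0427). The shTST value did not pass with DESeq2 (adjusted p = 0.219), limma-voom (adjusted p = 0.238) or the GC correction (adjusted p = 0.143). The NR1D1 call with shTST thus changed both with the WT library left out and with the processing. Exons of NR1D1 share 263 bases, 9.49% of its length, with THRA on the other strand, and THRA did not pass the test against WT in either line.

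DBP, the D-box activator and an output of CLOCK and BMAL1, read 7.47, 7.42, 9.03 and 7.94 CPM in WT, 7.37, 7.94, 8.06 and 7.14 CPM in shTST and 6.76, 9.36, 8.53 and 9.32 CPM in overTST. The 3 groups overlapped, with log2 fold changes of −0.06 (interval −0.24 to 0.13) and 0.09 (interval −0.13 to 0.31). DBP shares 661 exon bases with SPHK2, its neighbour on the other strand, and SPHK2 did not pass the test against WT either.

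**Figure D2:**
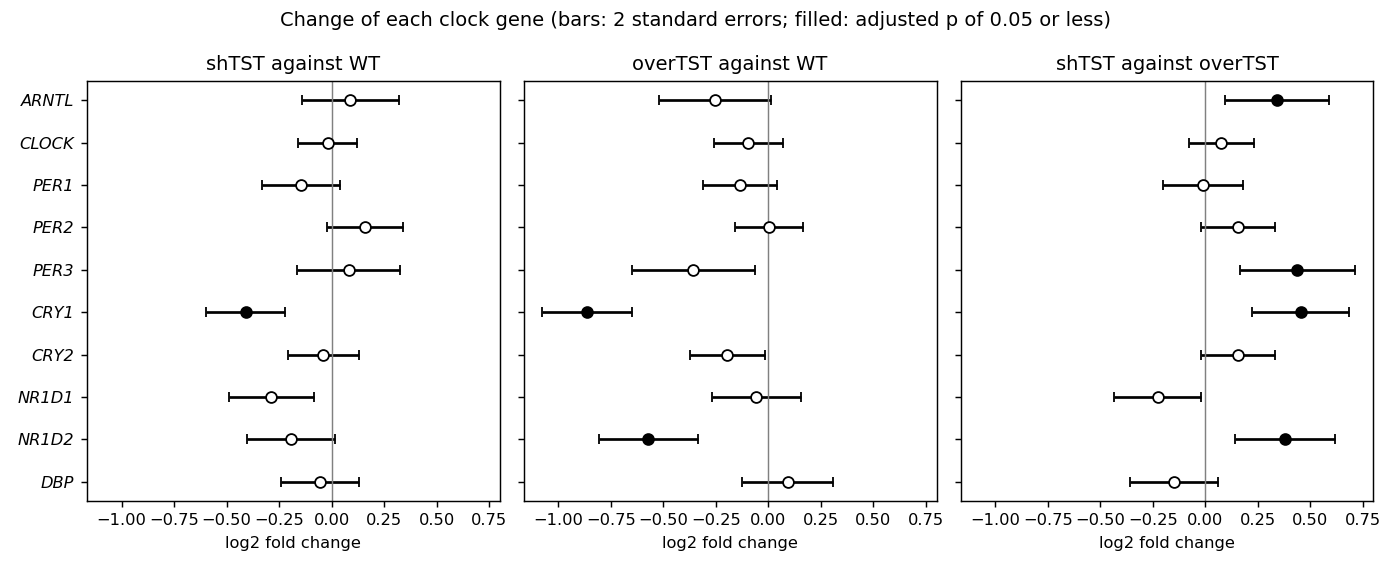
Log2 fold change of each clock gene in 3 comparisons, with bars of 2 standard errors and filled points for an adjusted p of 0.05 or less. CRY1 is filled in all 3 panels and NR1D2 in the last 2, while ARNTL and PER3 are filled only in the panel of shTST against overTST.

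Counted together, 1 of the 10 genes was called with shTST, lower, where 16.1% of the 14584 genes tested were called, 6.69% higher and 9.40% lower. With overTST 2 of 10 were called, both lower, where 33.9% of 14421 genes were called, 15.7% higher and 18.2% lower. The counts of lower genes are near these shares and are no result about the clock genes as a group, and without WT replicate 2 they were again 1 and 2. The median log2 fold change of the 10 genes was −0.05 with shTST and −0.17 with overTST, beside 0.00 over all genes tested in both. Values below 0 were found for 7 of the 10 genes with shTST and 8 with overTST, where 49.1% and 49.7% of all genes were below 0. CRY1 and NR1D2 were the genes with no overlap between overTST and WT, a state shared by 30.4% of all genes in that comparison and by 19.1% in the shTST comparison, where CRY1 alone had it.

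In the overTST comparison the fold change over all genes fell with exonic length (Spearman's rho = −0.40 across genes, which are not independent replicates; −0.09 with shTST and 0.36 for shTST against overTST). CRY1 has 5062 exonic bases and NR1D2 has 5820, and the 4134 tested genes of 5000 to 8500 bases had a median log2 fold change of −0.07 with overTST, with 25.7% of them called lower. After a correction for length the log2 fold change with overTST was −0.83 for CRY1 and −0.51 for NR1D2, and after one for GC content −0.79 and −0.50, with every adjusted p at 0.00143 or less. The PER3 value with overTST came to −0.24 (adjusted p = 0.216) with the length correction, and that of ARNTL to −0.17 (adjusted p = 0.350).

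The direct comparison of shTST with overTST asked whether the lines differed from each other, in 1 fit of all 12 libraries. Of the 10 genes 4 were higher in shTST than in overTST and none was lower, where 33.0% of 14883 genes were called, 16.9% higher and 16.1% lower. CRY1 was higher by 0.45 on the log2 scale (SE 0.12, adjusted p = 0.00374), although both lines were below WT, and this held under all 19 alternatives. PER3 was higher by 0.44 (SE 0.14, adjusted p = 0.0150), NR1D2 by 0.38 (SE 0.12, adjusted p = 0.0157) and ARNTL by 0.34 (SE 0.12, adjusted p = 0.0348). For ARNTL and PER3, which did not pass against WT in either line, every shTST library was above every overTST library, and groups did not overlap for 29.2% of all genes in this comparison. The ARNTL call was lost under 9 of 19 alternatives, with adjusted p up to 0.119, among them the length correction (0.27, adjusted p = 0.101), the GC correction (0.26, adjusted p = 0.105) and the fits without shTST replicate 1, 3 or 4 and without overTST replicate 3 or 4. The PER3 call was lost with the length correction (0.35, adjusted p = 0.0566) and without overTST replicate 2, and the NR1D2 call with the GC correction (0.26, adjusted p = 0.0934), without overTST replicate 2 and without shTST replicate 4. NR1D1 was the one gene of the 10 whose shTST libraries all lay below the overTST libraries, with a log2 difference of −0.23 that did not pass (SE 0.10, adjusted p = 0.0950), but did in 3 alternatives: no filter, the fit of the 8 libraries of both lines, and the fit without overTST replicate 1. For CLOCK, PER1, PER2, CRY2 and DBP the differences were between −0.15 and 0.16 and did not pass, with 1 exception among the alternatives, CRY2 with the GC correction (0.23, adjusted p = 0.0451).

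**Figure D3:**
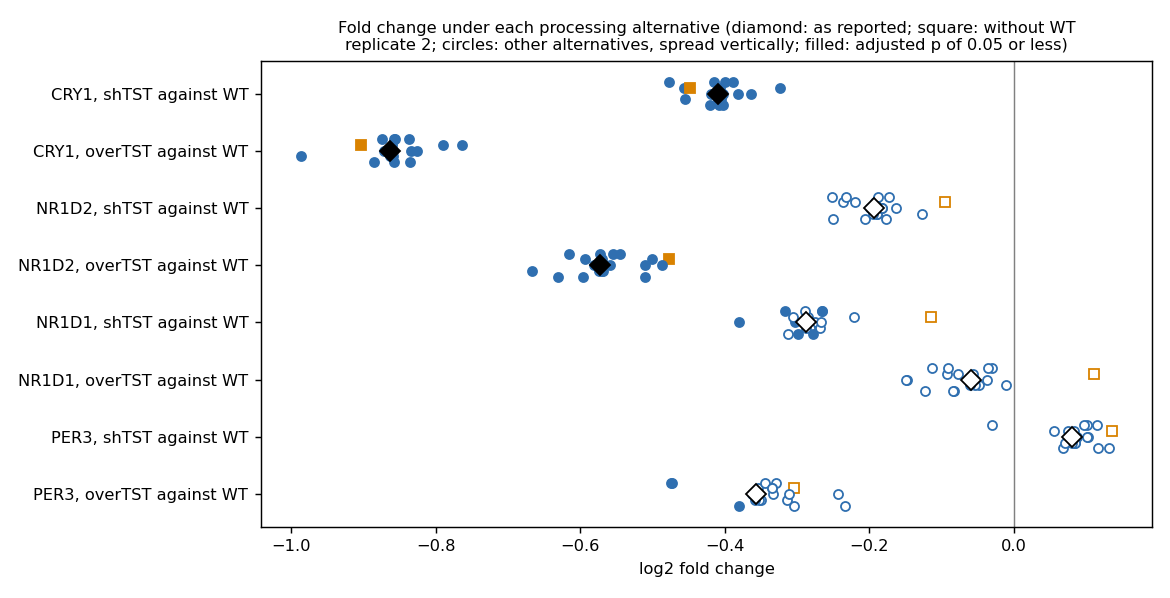
Log2 fold changes of CRY1, NR1D2, NR1D1 and PER3 under each processing alternative, with diamonds for the reported values, squares for the values without WT replicate 2 and filled symbols for an adjusted p of 0.05 or less. The points of CRY1 and of NR1D2 with overTST stay filled throughout, while the square of NR1D1 with overTST lies on the other side of 0, at 0.11.

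Levels can be set side by side between genes only per length, and were compared as CPM per kilobase of exonic sequence. The length counts every annotated exon base of a gene, since the transcripts used in these cells were not measured. DBP was divided by 6544 bases and NR1D1 by 2772, and a gene with annotated exons that are not used reads too low. The order between genes therefore depends on the annotation. In WT the order was NR1D1 at 9.27 ± 2.08, PER2 at 3.11 ± 0.396, CRY1 at 2.501 ± 0.136, CRY2 at 2.34 ± 0.291, PER1 at 1.77 ± 0.138, NR1D2 at 1.64 ± 0.231, CLOCK at 1.36 ± 0.104, DBP at 1.22 ± 0.114, ARNTL at 0.630 ± 0.0707 and PER3 at 0.606 ± 0.109 CPM per kilobase (SD, n = 4). Ranges overlapped between CRY1 and CRY2, in the run from PER1 through NR1D2 and CLOCK to DBP at each step, and between ARNTL and PER3, so that these neighbours were not separated by their spread. NR1D1 was 2.98 times PER2, the next in the order, and CLOCK was the more abundant of the pair of activators, with ARNTL at 0.464 ± 0.0522 times its level in WT. Among the 27248 genes with a count in WT, the 10 stood between the 56.1 percentile (PER3) and the 84.2 percentile (NR1D1).

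In this order CRY1 went from rank 3 in WT to rank 4 in shTST and rank 5 in overTST, at 1.89 ± 0.285 and 1.37 ± 0.244 CPM per kilobase. NR1D2 went from rank 6 in WT and shTST to rank 8 in overTST, at 1.11 ± 0.167 CPM per kilobase. With these, CRY2 went from rank 4 to 3 in both lines, and in overTST PER1 from 5 to 4 and DBP from 8 to 6, while CLOCK held rank 7. NR1D1, PER2, ARNTL and PER3 held ranks 1, 2, 9 and 10 in each group. Per length NR1D1 was 5.64 ± 0.866 times NR1D2 in WT, 5.34 ± 0.494 times in shTST and 8.26 ± 1.55 times in overTST, where the lowest library, at 6.16 times, was within the WT range. These ranks and ratios are descriptions and were not tested.

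**Figure D4:**
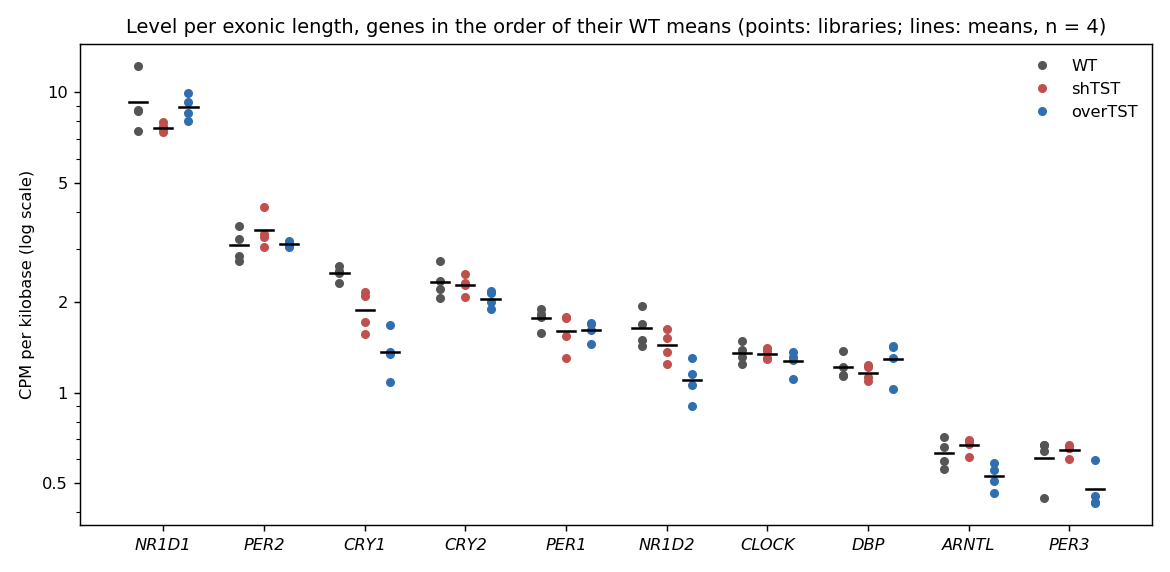
CPM per kilobase of exonic sequence for each gene and library on a log axis, genes in order of their WT mean, with lines for the means of 4 libraries. NR1D1 stands highest in all 3 groups and CRY1 drops from 2.501 in WT to 1.37 in overTST.

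By likeness of pattern over the 12 libraries, measured as the root mean square difference of centred log2 CPM among 11479 candidate genes, FAM214A (0.14) and UBR1 (0.15), a ubiquitin ligase of the N-degron pathway, were nearest to CRY1, whose own values deviated by 0.40. FAM214A stood at 4.24 ± 0.128 CPM in WT, 3.28 ± 0.340 CPM in shTST and 2.47 ± 0.0431 CPM in overTST, and UBR1 at 13.3 ± 1.15, 11.04 ± 0.947 and 8.15 ± 0.780 CPM. For NR1D2 the nearest were KALRN (0.11), a guanine nucleotide exchange factor, and PTCH1 (0.12), the hedgehog receptor, against a deviation of NR1D2 itself of 0.29. KALRN stood at 19.0 ± 1.57, 16.3 ± 0.688 and 13.7 ± 1.16 CPM and PTCH1 at 9.09 ± 1.32, 8.34 ± 0.534 and 5.74 ± 0.711 CPM in WT, shTST and overTST. FAM214A, UBR1, KALRN and PTCH1 were chosen for this likeness, so that their group means follow from the choice and were not tested.

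The rest of the clock pathway was read from 4 lists of 42 genes in all, of which 38 were tested. RORB, BHLHE41, CIART and RGS16 were too low. With shTST 3 of the 38 were called higher and 7 lower, 26.3% in all, beside the 16.1% of all genes. With overTST 2 were higher and 15 lower, 44.7% in all, beside 33.9%. Without WT replicate 2, 10 of them were called with shTST and 13 with overTST. The calls over all genes dropped as well when this library was left out. For shTST there were then 1934 in place of 2346, and for overTST 4262 in place of 4893. Over all genes tested, 6.69% were called higher and 9.40% lower with shTST, and 15.7% and 18.2% with overTST. The counts of each list below stand beside these shares. Whether the lists, together or singly, held more calls than other genes was not tested.

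Among 7 other transcription factors of the loop, 2 fell and none rose with shTST. With overTST 0 passed edgeR's test, where 1, NFIL3, had an unadjusted p under 0.05, and 0 passed with DESeq2 and with limma-voom. BHLHE40 (DEC1), an E-box repressor, fell from 26.2 ± 2.80 to 17.3 ± 2.07 CPM with shTST (log2 fold change −0.60, adjusted p = 6.80e-05) and was at 29.4 ± 7.25 CPM in overTST. The paralogues NPAS2 and ARNTL2, which can stand in for CLOCK and ARNTL, did not pass with overTST, and NPAS2 was lower with shTST by 0.19 (adjusted p = 0.0304) with overlapping libraries, a call that was lost without WT replicate 2.

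Of 11 kinases, ubiquitin ligases and other regulators of clock proteins, 2 rose and 1 fell with shTST, and 1 rose and 6 fell with overTST. The counts without WT replicate 2 were again 2 and 1 with shTST, and those with overTST were 1 higher, CSNK1E in place of USP2, and 5 lower, as PRKAA1 was lost. CSNK1A1, casein kinase 1 alpha, fell in both lines, from 82.2 ± 2.70 CPM in WT to 65.6 ± 3.02 CPM in shTST (log2 fold change −0.32, adjusted p = 9.50e-05) and 50.6 ± 4.35 CPM in overTST (−0.70, adjusted p = 1.31e-08). CSNK1D and CSNK1E, the casein kinases best known for phosphorylating PER, did not pass in either line with all libraries. FBXW11 and BTRC, the adaptors of the ligase that marks PER proteins for degradation, fell with overTST by 0.44 and 0.32 on the log2 scale (adjusted p = 2.44e-05 and 0.00135) and did not pass with shTST. With shTST TIMELESS rose by 0.20 (adjusted p = 0.00578), and USP2, a deubiquitinase, by 0.24 (adjusted p = 0.0129), a call that was lost without shTST replicate 4 (adjusted p = 0.0540). The rise of USP2 with overTST (0.19, adjusted p = 0.0413) was lost under 8 of 19 alternatives, among them the GC correction and the fits without WT replicate 1, 2 or 4 and without overTST replicate 2, 3 or 4.

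Of 10 output genes, 1 rose and 1 fell with shTST, and 1 rose and 4 fell with overTST. With WT replicate 2 left out, 2 were higher (CDKN1A and the cell cycle kinase WEE1) and 0 lower with shTST, as KLF10 was lost, and 1 was higher and 3 were lower with overTST, as INSIG2 was lost. CDKN1A (p21) rose in both lines, by 0.31 with shTST and 0.38 with overTST (adjusted p = 0.000951 and 3.42e-05). PPARA, the fatty acid receptor, fell by 0.43 with overTST (adjusted p = 2.25e-05). With the correction for gene length its log2 fold change was −0.24 (adjusted p = 0.003915). KLF10 fell by 0.51 with overTST (adjusted p = 0.00333), with its WT libraries at 20.4, 33.3, 18.3 and 19.9 CPM. Without WT replicate 2, KLF10 was lower by 0.26, and the call was lost with DESeq2 and with limma-voom. With shTST the KLF10 call (log2 fold change −0.37, adjusted p = 0.0474) was lost under 7 of 19 alternatives, among them the fit without WT replicate 2 (−0.12).

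The acute genes are immediate early and glucocorticoid-induced genes that respond to the signals that also induce PER1 and PER2. Of these 10, 3 fell with shTST and 5 with overTST, where 9.40% and 18.2% of all genes were called lower. None of the 10 rose. Without WT replicate 2 the counts lower were 3 with shTST and 3 with overTST, and FOS then passed as higher with shTST. KLF9 fell by 0.55 with shTST and 0.66 with overTST (adjusted p = 0.00299 and 0.000170), and by 0.40 and 0.51 without WT replicate 2, which kept both calls. EGR1 fell by 0.50 and 0.40 (adjusted p = 0.00504 and 0.00812), of which 0.28 and 0.19 were left without WT replicate 2, and lost both calls with DESeq2 and limma-voom. NR4A1 fell by 0.58 with shTST (adjusted p = 0.00463) and by 0.38 without WT replicate 2, and its call with overTST (−0.47, adjusted p = 0.0127) was lost without WT replicate 2 or overTST replicate 2. SGK1 fell by 0.41 with overTST (adjusted p = 0.0164), and the value without WT replicate 2 was −0.14 and did not pass, nor did that without overTST replicate 3. The SGK1 call was also lost with the length correction (−0.26, adjusted p = 0.1184), DESeq2 and limma-voom. PER1, which responds to the same signals, was at 13.3 CPM in WT replicate 2 and 11.04 to 12.8 CPM in the other WT libraries.

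**Figure D5:**
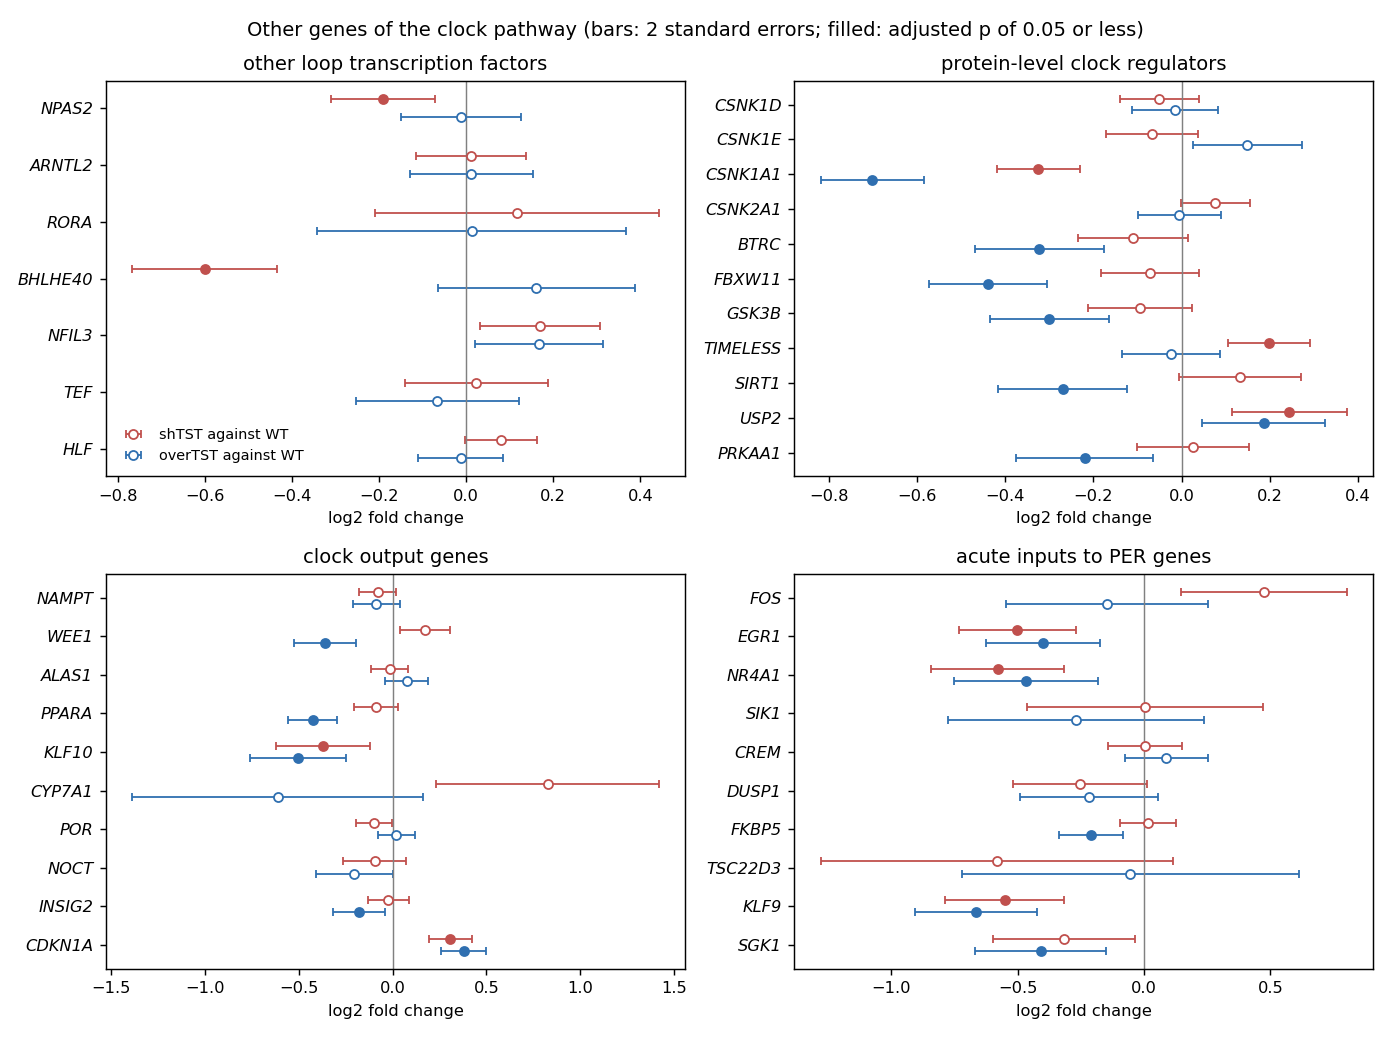
Log2 fold changes of the 38 other genes of the clock pathway that were tested, in 4 lists, with shTST (red) and overTST (blue) against WT, bars of 2 standard errors and filled points for an adjusted p of 0.05 or less. CSNK1A1 lies furthest below 0 among the regulators with overTST, at −0.70, and CDKN1A is filled above 0 for both lines among the output genes.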

How the data were processed

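Per the submitters' processing notes, reads were handled with Trimmomatic 0.36, STAR 2.5.2b and featureCounts of Subread 1.5.2 on GRCh38, and the authors deposited whole-number read counts per gene for each of 12 libraries, not normalised. The use of strand and the annotation release are not given in the sources used here, so that reads of exons shared by genes on both strands cannot be assigned between them. The strand, coordinates, lengths and exon overlaps of genes came with the deposited counts, and gene symbols, gene types and GC content from GENCODE release 29. Groups came from the sample titles. The study describes its replicates in general as independent experiments, and does not say so of these 4 replicates in particular. No pair of libraries within a group agreed within sampling noise.

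The counts were filtered with edgeR's filterByExpr, scaled by TMM and tested with its quasi-likelihood test, with Benjamini-Hochberg adjustment over all genes tested and calls at an adjusted p of 0.05 or less. Each comparison with WT used its own 8 libraries and shTST against overTST all 12. Each standard error was taken from the F statistic of the gene, as the size of its log2 fold change over the root of F. CPM per library used TMM over all 12 libraries, and log2 CPM a prior count of 2. Per-length levels divided CPM by exonic kilobases. The alternatives were DESeq2, limma-voom, RLE and upper-quartile scaling, no filter, more than 1 CPM in 4 libraries, lowess corrections (span 0.3) for length and GC content, the replicate number as a block with and without the length correction, another set of libraries, and each library left out. Software was R 4.3.3, edgeR 4.0.16, limma 3.58.1 and DESeq2 1.42.0. The fits against WT were tested on simulated data. For shTST and overTST in turn, edgeR recovered 77.5% and 81% of the planted changes, with 4.91% and 6.36% of its calls false. The false shares were 7.41% and 4.85% with DESeq2, and 5.56% and 5.81% with limma-voom. The genes and lists were chosen with earlier results of these data known. Some genes of the clock pathway are not reported here. From each list and comparison with WT, up to 3 genes were named by size of change among those called with no overlap between the groups, and the 2 genes nearest in pattern to a called member. Other list genes, such as PRKAA1, CSNK1E, WEE1 and INSIG2, were named after their values were seen. Total counts set the counting error.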

Additional observations from a re-analysis of the deposited data

Results flagged for a closer look

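Of 30 groups of 4 libraries of the clock genes examined for a library far from the others, 2 were picked out, both for PER3, where chance picks about 1 in 20. In WT, replicate 3 was at 3.60 CPM and the nearest library at 5.17 CPM, a gap of 0.857 of the group's range. In overTST, replicate 4 was at 4.82 CPM and the nearest library at 3.67 CPM, a gap of 0.853 of the range. Leaving out either library put the PER3 difference between overTST and WT past the threshold, at a log2 fold change of −0.47. Both libraries lay toward the other group, so that a wider difference without them follows from the choice. With all libraries and the length correction the value was −0.24 (adjusted p = 0.216).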

How the results depend on the processing

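The calls of CRY1 in all 3 comparisons and of NR1D2 with overTST held under each alternative run. The number of clock genes called with shTST was 2 in place of 1 with no filter, the length correction, the replicate block, and the block with length correction, and 1 to 2 with a library left out, as NR1D1 passed. The same number with overTST was 2 to 4 with a library left out, 4 being without WT replicate 3, where PER3 and CRY2 passed, and 2 with the replicate block. For shTST against overTST it was 2 in place of 4 with the length correction, 2 to 5 with a library left out and 4 with the block. The replicate numbers were not used to pair the samples in the main fits. Correlations of same-numbered deviations ran from −0.0527 to 0.0801, and values this low cannot decide whether the samples were paired. Over all genes the block gave 2980 calls with shTST in place of 2346, and 5166 with overTST in place of 4893. Between the lines it gave 5232 in place of 4907. Without shTST replicate 1 there were 1513 calls with shTST. The level of PER2 in overTST was 3.01 CPM per kilobase on raw totals, against 3.12.

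Signs turned for 33 values, none of them called as reported, and the cause was not tested. Upper-quartile scaling gave 0.00106 for CLOCK with shTST and 0.00249 for TIMELESS with overTST. The length correction gave 0.00686 for CLOCK with shTST, 0.0746 for CLOCK and 0.0374 for TIMELESS with overTST, and −0.0707 for CLOCK between the lines. With the block added these were 0.00921 for CLOCK with shTST, 0.0765 and 0.0363 for CLOCK and TIMELESS with overTST, and −0.0703 for CLOCK between the lines. The GC correction gave 0.00307 for CRY2 with shTST, −0.00926 for PER2 with overTST, and −0.0454 for CLOCK and 0.115 for PER1 between the lines. With no filter PER2 was at −0.0205 with overTST and PER1 at 0.00918 between the lines.

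With a library left out, the values with shTST ran from −0.0556 to 0.0298 for CLOCK, −0.0310 to 0.136 for PER3, −0.0905 to 0.0511 for CRY2 and −0.0919 to 0.00838 for DBP. With overTST they ran from −0.0493 to 0.0831 for PER2, −0.150 to 0.111 for NR1D1 and −0.0711 to 0.00877 for TIMELESS, and between the lines from −0.0691 to 0.0761 for PER1. The lowest counts, 75 for ARNTL and 82 for PER3, set the widest counting error among the 10 genes.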
